A study of Mus musculus with 14 samples.

Results

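The genes of vesicle transport between the endoplasmic reticulum (ER) and the Golgi apparatus were described in lactating mouse mammary tissue. The 44 genes comprise 8 subunits of the COPII coat with 2 SAR1 GTPases and the exit site scaffold *Sec16a*, 9 subunits of the COPI coat with 2 ARF GTPases, 6 p24 and 3 lectin-type cargo receptor genes, 3 KDEL receptors, 6 SNAREs, and 4 tether and Golgi matrix genes. They were chosen by name from the textbook composition of the pathway, with no measured value in the rule. Earlier results of these data were, however, known when the list was made. All 44 were found among the 20550 rows of both deposited expression files. The study deposited 14 samples, of which the 2 total RNA-seq libraries were used and the other 12, from ChIP-seq, were not analysed here. Both RNA-seq libraries come from the mammary gland on day 10 of lactation (L10), from mice whose genotype the labels write as WT_wTbrg4 and the study as wt/Wap-Tbrg4. These mice carry a wild-type allele and a *Wap-Tbrg4* allele. In the latter, a deletion placed the body of *Tbrg4* under the super-enhancer and promoter of *Wap*, a milk protein gene that is active in secretory alveolar cells. No treatment was applied, and the age of the mice is not given in the sources used here. The labels number the libraries as replicates 1 and 2 without saying whether they come from separate animals, so the spread between them may be technical. No other genotype was measured by these files, and every level below is therefore a description with no test.

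Secretory proteins leave the ER in vesicles coated with COPII. The GTPase SAR1 recruits the SEC23-SEC24 inner layer, which selects cargo, and the SEC13-SEC31 outer layer then forms the cage. COPI, recruited by ARF GTPases, forms vesicles on Golgi membranes and carries cargo receptors and escaped ER chaperones back to the ER, the latter bound to KDEL receptors. Tethers and SNAREs attach the vesicles to their target membrane and fuse them. In the lactating gland this route carries the caseins and the other milk proteins, which alveolar epithelial cells make in very large amounts.

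Several of these genes carry the UPR element TGACGTGG close to their start site, a sequence known to be bound by the ER stress factors ATF6 and XBP1. In RefSeq promoter windows of 300 bases on GRCm38.p6 (250 before to 50 after a start), read for 39 of the 44 genes, this element was found on either strand at *Arf1*, *Copb1*, *Copb2*, *Kdelr3*, *Sec23a*, *Sec24d* and *Stx5a*. These 7 of 39 genes are 17.9%, whereas 0.714% of all 27025 genes with a window and 1.31% of the 2515 such genes with a mean exon level of at least 10 FPKM held it. The cAMP response element TGACGTCA, whose first 6 letters are the same, was found at *Cope* and *Gosr2*, 5.13% of the 39 genes compared with 2.03% of all genes and 3.58% of those with an exon level of at least 10 FPKM. The ER stress response element (CCAAT, then 9 bases of any kind, then CCACG) was in 0 of the 39 windows, compared with 0.137% of all genes and 0.358% of those at 10 FPKM or above. The elements are shown for genes in which the match lies upstream of every start whose window held it, together with up to 20 bases on each side, the matched letters in capitals and read along the strand of the gene. CCACGTCA is TGACGTGG read from the other strand.
Sec24d, chr3:123267450-123267495, plus strand: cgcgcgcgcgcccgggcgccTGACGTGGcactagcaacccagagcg
Copb1, chr7:114254681-114254728, minus strand: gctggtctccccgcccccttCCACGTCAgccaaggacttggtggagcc
Kdelr3, chr15:79516358-79516405, plus strand: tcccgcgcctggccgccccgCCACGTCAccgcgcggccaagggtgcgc
Cope, chr8:70302537-70302584, plus strand: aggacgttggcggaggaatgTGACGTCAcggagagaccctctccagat
Gosr2, chr11:103697920-103697967, minus strand: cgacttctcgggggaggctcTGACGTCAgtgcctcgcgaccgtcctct
The match ended 18 bases before the start in *Sec24d*, 20 in *Copb1* and 22 in *Kdelr3*, but 202 in *Cope* and 216 in *Gosr2*. The other UPR elements are not shown: that of *Copb2* reached the start, that of *Sec23a* and the 2 of *Stx5a* lay past it, and that of *Arf1* lay 76 bases before an annotated start and past another. The genes with the UPR element spanned nearly the whole range of levels. Their median exon level was 28.3 FPKM (7 genes, 5 to 75.4), compared with 27.95 FPKM in the other 32 genes with a window (5.1 to 215.3). A match to these letters is not evidence that a factor is bound there, and no binding was measured here.

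The introns of 4 of the 44 genes also hold a microRNA gene on the same strand. Those in *Copz1* and *Copz2*, which encode the alternative zeta subunits of COPI, are shown because their 3p microRNAs share the seed, bases 2 to 8 from the 5′ end, printed in capitals (RefSeq, GRCm38.p6).
miR-148b-3p, intron of Copz1, chr15:103285185-103285206, plus strand: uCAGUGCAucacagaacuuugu
miR-152-3p, intron of Copz2, chr11:96850439-96850459, plus strand: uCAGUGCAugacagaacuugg
The level of the microRNAs was not measured in these libraries.

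Most genes of the pathway were present at high levels. Levels are given as FPKM, fragments per kilobase of exon scaled to a library total that is not given in the sources used here. The scaling by gene length allows genes to be set side by side, but it does not correct for their GC content. The median exon level of the 44 genes was 28.5 FPKM, 30.25 in replicate 1 and 28.65 in replicate 2. The median of all 20515 genes with a usable symbol was 0.75 FPKM, and that of the 9845 genes with a mean of at least 1 FPKM was 5.7 FPKM. In both samples 37 of the 44 genes reached 10 FPKM, a level reached in the mean by 15.2% of all genes and by 31.6% of those with at least 1 FPKM. Of the 44 genes, 36 were in the highest 10% of all genes and 23 in the highest 5%, while among the 9845 genes with at least 1 FPKM 22 of the 44 were in the highest 10%. The genes spanned a 43.1-fold range, from *Tmed3* at rank 101 to *Sec23a* at rank 5387 of all genes by the mean. Together they took 0.190% of all exon FPKM in replicate 1 and 0.0941% in replicate 2. Without 7 milk protein genes, which alone took 65.7% and 84.4% of that sum, the shares were 0.553% and 0.602%.

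The libraries carried the signature of secretory alveolar cells and of other cells of the gland. *Tbrg4* was at 314.7 and 291.5 exon FPKM and *Wap* at 172935 and 234774 in replicates 1 and 2. The 7 milk protein genes were all far above 10 FPKM, but 5 of them differed by more than 2-fold between the samples. The summed exon level was 333.4 and 202.8 FPKM for 5 luminal epithelial markers, of which *Krt8*, *Krt18* and *Krt19* were more than 2-fold apart. For 4 adipocyte markers it was 600.4 and 683.9 FPKM, of which *Fabp4* alone gave 501.7 and 564 FPKM. *Fabp4* and *Adipoq* were higher in replicate 2, while *Lep* and, by more than 2-fold, *Plin1* were higher in replicate 1. The summed level was 118.8 and 68.8 FPKM for 4 fibroblast markers and 46.1 and 40.1 FPKM for 3 endothelial markers. For 4 myoepithelial markers it was 43.4 and 32.5 FPKM. Of these, *Col1a1* and *Krt14* were more than 2-fold apart, and *Acta2* was listed at 0 in both samples. Of the 5 immune cell markers, *Jchain* gave 107.4 of 113.2 FPKM in replicate 1 and 89.3 of 94.7 FPKM in replicate 2. The transport genes act in every cell type of the tissue, and in whole-tissue RNA a different number of cells of a type cannot be told apart from a different amount of RNA per cell. The part of these cells in the levels of the transport genes was not tested.

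**Figure D1:**
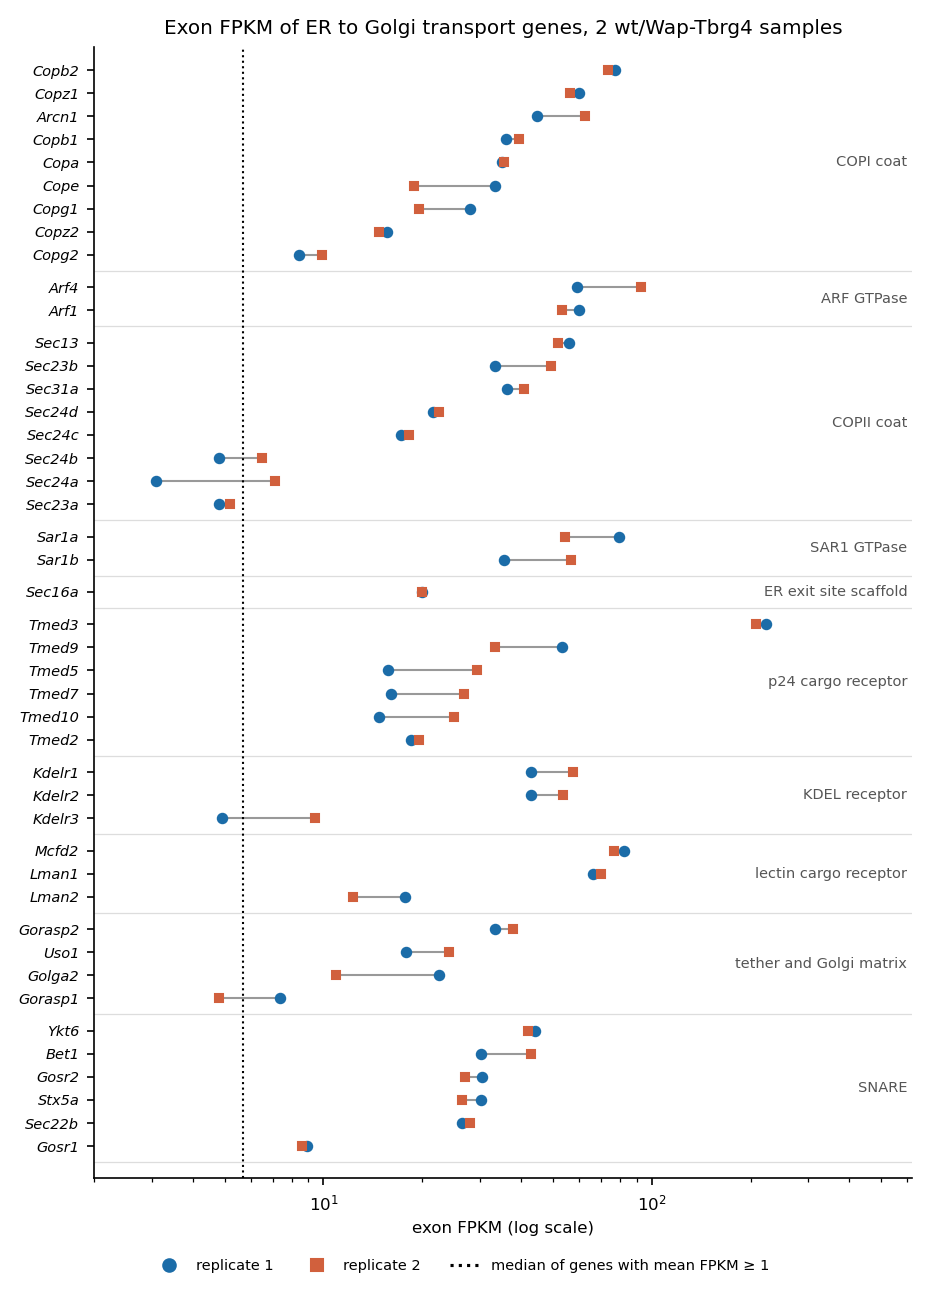
Exon FPKM of the 44 transport genes on a log axis, grouped by class, with circles for replicate 1, squares for replicate 2 and a dotted line at the median of genes with a mean of at least 1 FPKM (5.7). *Tmed3* is the highest with 222.7 and 207.9 FPKM, and *Sec23a*, *Sec24a* and *Sec24b* are the lowest coat genes.

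At the start of the route, the COPII genes were uneven. *Sec13*, whose product is a cage subunit of COPII and also a part of the nuclear pore, was the highest subunit gene with 55.8 FPKM in replicate 1 and 51.7 in replicate 2 (53.75 ± 2.90, SD, n = 2). *Sec31a*, the other cage subunit, had 36.2 and 40.9 FPKM (38.55 ± 3.32, SD, n = 2). In the inner layer, *Sec23b* had 33.4 and 49.2 FPKM (41.3 ± 11.2, SD, n = 2), while its paralog *Sec23a* had 4.8 and 5.2 FPKM (5 ± 0.283, SD, n = 2), the lowest mean of the 44 genes, although *Sec24a* was lower in replicate 1 and *Gorasp1* in replicate 2. SEC23 is the subunit that stimulates GTP hydrolysis by SAR1, and *Sec23b* gave 87.4% and 90.4% of the level of the pair.

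The 4 *Sec24* paralogs, whose products hold the binding sites for cargo signals, fell into 2 levels. *Sec24d* had 21.5 and 22.5 FPKM and *Sec24c* 17.2 and 18.2 FPKM, so the samples differed by little in both. *Sec24b* had only 4.8 and 6.5 FPKM, and *Sec24a* 3.1 and 7.1 FPKM. In each sample *Sec24d* was the highest and *Sec24c* came next, with 46.1% and 41.4% of the *Sec24* sum for *Sec24d* and 36.9% and 33.5% for *Sec24c*. The order of *Sec24a* and *Sec24b* was not the same in the samples, and their difference was within the spread.

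The GTPases and the scaffold that start the coat were also high. *Sar1a* had 79.2 and 54.5 FPKM and *Sar1b* 35.4 and 56.8 FPKM, so *Sar1a* was the higher gene in replicate 1 and *Sar1b*, by a small margin, in replicate 2. The sum of the pair was nearly the same in the samples (114.6 and 111.3 FPKM, 113 ± 2.33, SD, n = 2). *Sec16a*, the large scaffold protein of ER exit sites, had 20 and 19.9 FPKM (19.95 ± 0.0707, SD, n = 2).

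Among the cargo receptors of the 44 genes, *Tmed3* stood far above the rest. The p24 (TMED) proteins are small membrane proteins that cycle between the ER and the Golgi and take part in cargo selection and vesicle formation. *Tmed3* (chr9:89699203-89705043, minus strand, GRCm38) had 222.7 and 207.9 FPKM (215.3 ± 10.5, SD, n = 2), which was 2.70 times the next highest of the 44 genes in replicate 1 (*Mcfd2*) and 2.24 times in replicate 2 (*Arf4*). The other 5 p24 genes of the 44 were between 14.8 and 53.2 FPKM, and 4 of them were more than 1.5-fold apart between the samples. *Tmed9* was higher in replicate 1, with 53.2 and 33.4 FPKM. *Tmed10* (14.8 and 24.9), *Tmed5* (15.7 and 29.3) and *Tmed7* (16.1 and 26.8 FPKM) were all higher in replicate 2 on the deposited scale. *Tmed2*, the beta-subfamily member, differed little, with 18.5 and 19.6 FPKM. The coding sequences of *Tmed2* and *Tmed10* have 2 and 1 near-identical copies elsewhere in the genome, so reads may be shared with these copies.

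The lectin route contained 3 genes, 2 of them high. LMAN1, also called ERGIC-53, is a mannose-binding receptor that exports glycoproteins together with its soluble partner MCFD2. *Mcfd2* had 82.5 and 76.8 FPKM (79.65 ± 4.03, SD, n = 2) and *Lman1* 66.4 and 70.1 FPKM (68.25 ± 2.62, SD, n = 2). The partners were therefore within a narrow range of each other, at ranks 274 and 333 of all genes. *Lman2*, which encodes the related lectin VIP36, was lower with 17.7 and 12.3 FPKM (15 ± 3.82, SD, n = 2).

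The tether and Golgi matrix genes had a median of 18.8 FPKM, 20.15 in replicate 1 and 17.5 in replicate 2. *Uso1*, which encodes the long coiled-coil tether p115, had 17.8 and 24.1 FPKM, and *Golga2*, which encodes its partner GM130, had 22.5 and 10.9 FPKM. The order of these interacting partners differed between the samples. The GRASP proteins link Golgi cisternae, and *Gorasp2* (GRASP55) with 33.4 and 37.8 FPKM was above *Gorasp1* (GRASP65) with 7.4 and 4.8 FPKM in each sample. The exons of *Gorasp1* overlap those of *Wdr48* on the other strand over 915 bp.

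The SNAREs, which form the bundle that fuses ER-derived vesicles with the Golgi, had a median of 28.5 FPKM. *Ykt6*, a lipid-anchored SNARE that serves several steps, was the highest with 44.2 and 42.0 FPKM. The ER-to-Golgi bundle of syntaxin 5, SEC22B, BET1 and membrin was encoded by genes of like levels: *Stx5a* had 30.2 and 26.4 FPKM, *Sec22b* 26.5 and 28.0, *Bet1* 30.1 and 42.8, and *Gosr2* (membrin) 30.3 and 27 FPKM. In replicate 1 *Stx5a*, *Bet1* and *Gosr2* were almost equal, whereas in replicate 2 *Bet1* stood above the other 3. *Gosr1*, which encodes GS28 of a later Golgi SNARE complex, was lower with 8.9 and 8.6 FPKM.

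On the return route, the ARF GTPases and most COPI genes were above 20 FPKM in the mean. *Arf1*, the GTPase that recruits coatomer, had 60.2 and 53.1 FPKM, and *Arf4*, a class II ARF, 59.0 and 92.7 FPKM. The subunits of the cage-like part of coatomer were unequal. *Copb2* (beta prime) had 77.2 and 73.6 FPKM (75.4 ± 2.55, SD, n = 2), *Copa* (alpha) 34.9 and 35.4 FPKM (35.15 ± 0.354, SD, n = 2) and *Cope* (epsilon) 33.2 and 18.9 FPKM (26.05 ± 10.1, SD, n = 2).

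The adaptor-like part of coatomer contained the delta, beta, gamma and zeta subunits. *Arcn1* (delta) had 44.7 and 62.5 FPKM, although its coding sequence has 2 near-identical copies in the genome, and *Copb1* (beta) had 35.9 and 39.3 FPKM. *Copg1* had 28.0 and 19.6 FPKM and *Copg2* 8.4 and 9.9 FPKM, so that *Copg1* made up 76.9% and 66.4% of the gamma sum. *Copg2* overlaps the exons of *Mest* on the other strand over 912 bp. *Copz1* had 60.1 and 56.5 FPKM and *Copz2* 15.6 and 14.8 FPKM, which puts *Copz1* at 79.4% and 79.2% of the zeta sum.

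Since a coat contains its subunits in fixed proportion, the levels were also summed over the paralogs of each position. The 4 COPII positions lay within 1.39-fold of each other in the mean, 1.54-fold in replicate 1 and 1.33-fold in replicate 2. SEC13 had 53.75 FPKM, SEC24 50.45 ± 5.44, SEC23 46.3 ± 11.5 and SEC31 38.55 ± 3.32 FPKM (SD, n = 2). The SEC13, SEC23 and SEC24 sums were 55.8, 38.2 and 46.6 FPKM in replicate 1 and 51.7, 54.4 and 54.3 FPKM in replicate 2. The 7 COPI positions spread over 2.89-fold in the mean, 2.33-fold in replicate 1 and 3.89-fold in replicate 2. A range over 7 positions tends to be wider than a range over 4, so the spreads of the coats are not compared. Beta prime (75.4 FPKM) and zeta (73.5 ± 3.11, SD, n = 2) were the highest, ahead of delta at 53.6 FPKM, beta at 37.6, alpha at 35.15, gamma at 32.95 ± 4.88 and epsilon at 26.05 FPKM. Beta prime and zeta were also the highest positions in each sample, and did not differ beyond the spread of both. Alpha, gamma and epsilon did not have one fixed order, because gamma was above alpha in replicate 1 and below it in replicate 2.

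**Figure D2:**
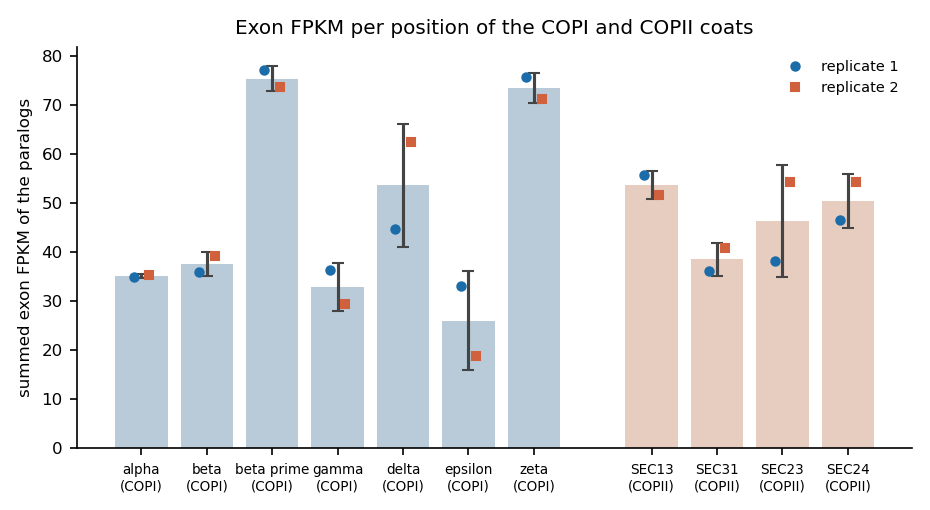
Summed exon FPKM of the paralogs encoding each coat position (linear axis from 0), with circles for replicate 1 and squares for replicate 2. The 4 COPII positions lie within 1.39-fold of each other in the mean and the 7 COPI positions within 2.89-fold, with beta prime and zeta at the top.

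The KDEL receptors return chaperones such as BiP to the ER. *Kdelr1* had 42.8 and 57.7 FPKM (50.25 ± 10.5, SD, n = 2) and *Kdelr2* 43.0 and 53.8 FPKM (48.4 ± 7.64, SD, n = 2), so these did not differ beyond their spread. *Kdelr3* had 4.9 and 9.4 FPKM (7.15 ± 3.18, SD, n = 2) and made up 5.40% and 7.78% of the sum of the 3 receptors. All 3 receptors were higher in replicate 2 on the deposited scale.

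Genes of the same family differed by large factors in many cases. Of 16 pairs, 11 had the same order in both samples and a difference beyond the SD of both genes. The ratios were not corrected for GC content, with which the differences between the samples went, as given below. Within the p24 gamma subfamily, *Tmed3* was 14.2 and 7.10 times *Tmed5* and 13.8 and 7.76 times *Tmed7*. *Sec23b* was 6.96 and 9.46 times *Sec23a*, *Kdelr1* was 8.73 and 6.14 times *Kdelr3*, and *Gorasp2* was 4.51 and 7.88 times *Gorasp1*. Smaller but steady ratios were found for *Copz1* to *Copz2* (3.85 and 3.82), *Gosr2* to *Gosr1* (3.4 and 3.14) and *Sec24d* to *Sec24c* (1.25 and 1.24). *Lman1* was 3.75 and 5.70 times *Lman2*, and *Copg1* 3.33 and 1.98 times *Copg2*. The remaining 5 pairs changed order between the samples: *Arf4* to *Arf1* (0.980 and 1.75), *Sec24b* to *Sec24a* (1.55 and 0.915), *Sar1a* to *Sar1b* (2.24 and 0.960), *Kdelr1* to *Kdelr2* (0.995 and 1.07) and *Tmed5* to *Tmed7* (0.975 and 1.09). The ratio of *Copz1* to *Copz2* in introns was 0.818 and 1.38, so the introns of these genes, which hold miR-148b and miR-152, did not show the difference of the exons. These ratios are coarse, as they rest on intron levels of 0.8 to 1.1 FPKM deposited with 1 decimal. Nor is a smaller ratio in introns particular to this pair. By the means, the exon ratio was above the intron ratio in 11 of the 16 pairs. The gene with the higher mean exon level was put on top in each pair, which by itself favours a larger exon ratio. Some genes are also in more than 1 pair, so no conclusion is drawn from this count.

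**Figure D3:**
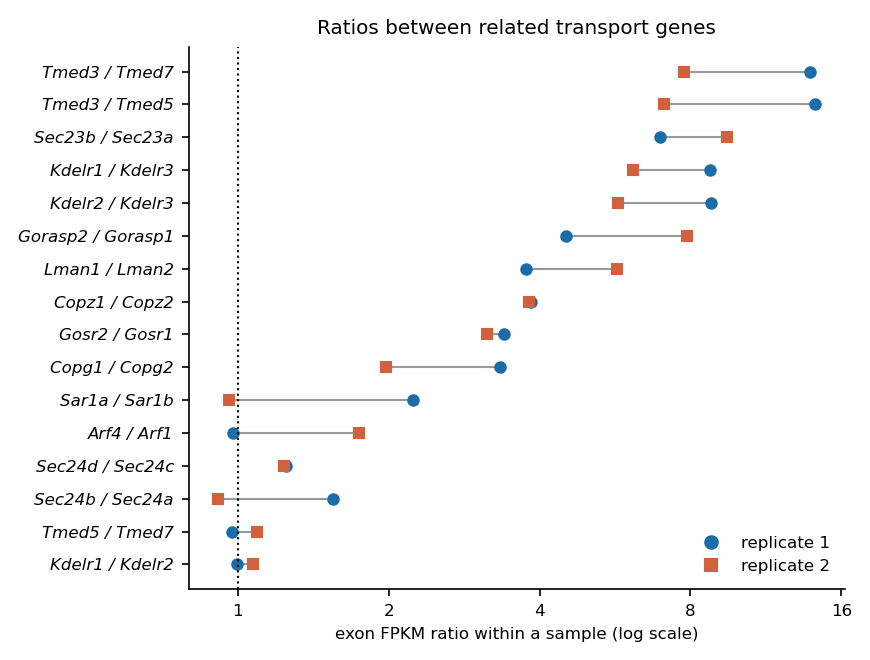
Exon FPKM ratio of 16 pairs of related transport genes within a sample (log axis, dotted line at equality), with circles for replicate 1 and squares for replicate 2. Of these pairs 11 stay on one side of equality in both samples, and the ratios of *Tmed3* to *Tmed5* and *Tmed7* reach 14.2 and 13.8.

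The wider pathway was measured with 43 further genes fixed as a list. Of these, 26 had a mean exon level of at least 10 FPKM, with a median of 15.1 FPKM, and *Lman1l*, *Tmed6* and *Tmed11* were listed at 0 in both samples. The 3 highest in the mean were *Surf4*, an ER cargo receptor for soluble secretory proteins, with 246.2 and 230.0 FPKM, *Rab1a*, the GTPase that recruits p115, with 71.9 and 127.8 FPKM, and *Mia3* (TANGO1), which organises the export of bulky cargo such as collagen, with 108.2 and 87.2 FPKM. In replicate 1 *Arfgap3*, with 91.3 FPKM, was above *Rab1a*. *Surf4* was the only gene of these 43 above *Tmed3* in both samples. By group, the median was 20.9 FPKM for 12 coat regulators (10 of them at 10 FPKM or above), 12.1 FPKM for 15 SNAREs and tethers (9) and 5.53 FPKM for 16 cargo receptors (7).

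Intron reads come mostly from unspliced RNA, and the intron levels of the transport genes were low beside their exon levels, as in other genes. The median intron level was 1.05 FPKM, with a range of 0.25 to 5.2, compared with 0.8 FPKM for the 3078 genes with a mean exon level of at least 10 FPKM and an intron level above 0. As a share of the exon level, the median was 3.86% for the 44 genes and 3.53% for those 3078. The sets are not alike, because the 44 include 7 genes under 10 exon FPKM. Values were deposited with 1 decimal, so that low intron levels are coarse. *Tmed3* had the lowest share, with 1.3 and 1.6 intron FPKM or 0.584% and 0.770% of its exon level. Its mean intron level, 1.45 FPKM, was exceeded by 12 of the 44 genes, while its exon level was the highest.

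*Stx5a* (chr19:8741424-8755642, plus strand, GRCm38) was at the other end. It had 5.5 and 4.9 intron FPKM, the highest of the 44 genes, and 18.2% and 18.6% of its exon level. *Stx5a* and 6 other transport genes hold a small RNA gene in an intron (*Copz1*, *Copz2*, *Sec24a*, *Sec24c*, *Kdelr1* and *Uso1*). The median share was 5.08% in these 7 genes and 3.74% in the other genes, and the part of the small RNAs was not tested. *Sec24a* had shares of 22.6% and 9.86% at an intron level of 0.7 FPKM in both samples, the difference coming from its exon level. Across the 44 genes, exon and intron levels had a Spearman correlation of 0.689. Across the 37 of them with at least 10 exon FPKM it was 0.499, and across the 3078 genes at that level it was 0.396. Genes are not independent replicates, and both values of a gene come from the same libraries.

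**Figure D4:**
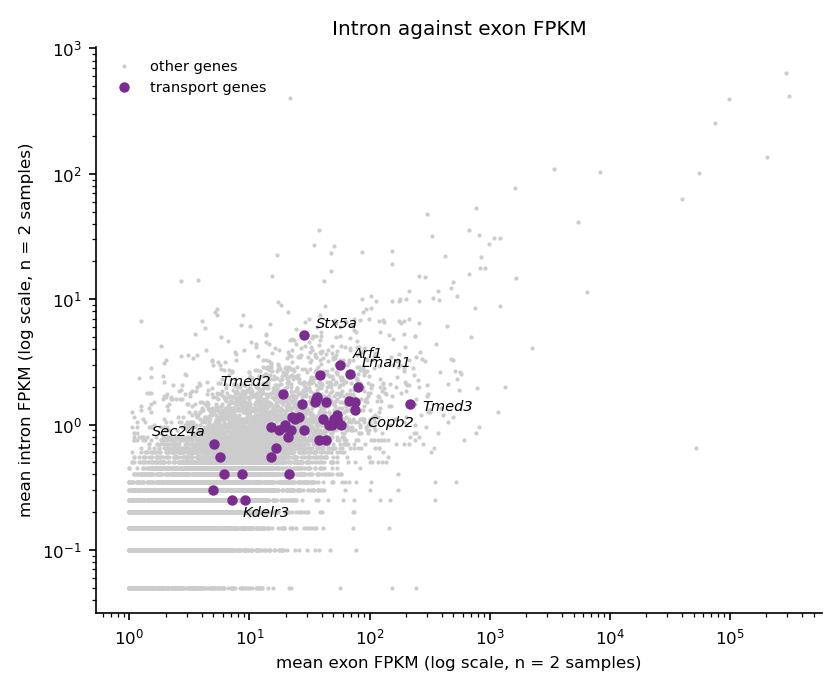
Mean intron FPKM against mean exon FPKM (both log axes, n = 2 samples), with the transport genes as large points. Small grey points are other genes with a mean exon level of at least 1 FPKM and an intron level above 0. Among the transport genes, *Stx5a* lies highest on the intron axis at 5.2 FPKM, and *Tmed3* lies farthest to the right at 215.3 exon FPKM.

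The samples share genotype and stage, and the levels of the 44 genes were much alike in them, with a Spearman correlation of 0.909 across genes. Ratios between the samples were taken on log2(FPKM + 1), which understates the difference of low genes. On this scale 0 of 44 genes were more than 2-fold apart, compared with 5.9% of all genes with a mean of at least 1 FPKM. The extremes were *Sec24a*, higher in replicate 2 by 0.98 on the log2 scale, and *Golga2*, at -0.98. With no pseudocount, *Sec24a* was 2.29-fold higher in replicate 2 and *Golga2* 2.06-fold higher in replicate 1. Of the 44 genes, 7 of them under 10 FPKM in the mean, 23 were within 1.2-fold, compared with 36.9% of all genes with a mean of at least 10 FPKM.

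At a fold of 1.5, chosen after the values were seen, 10 of 44 genes were apart (22.7%), which is close to the 24.1% of all genes. Among genes with a mean of at least 10 FPKM the count was 8 of 37 (21.6%, compared with 27.1% of all such genes). The direction was uneven. *Arf4*, *Sar1b*, *Tmed5*, *Tmed7*, *Tmed10*, *Kdelr3* and *Sec24a* were higher in replicate 2, which is 15.9% of the 44 genes compared with 7.01% of all genes. *Tmed9*, *Cope* and *Golga2* were higher in replicate 1, which is 6.82% compared with 17.1% of all genes. *Sec24a* (chr11:51692263-51756834, minus strand) and *Sar1b* (chr11:51763663-51791953, plus strand) lie close together on opposite strands.

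The scale decides the overall direction. On the deposited scale 25 of the 44 genes were higher in replicate 2 and 19 in replicate 1, with a median log2 ratio of 0.08 compared with -0.08 over all genes. The 25 are 56.8% of the 44, compared with 46.7% of all genes with a mean of at least 10 FPKM. Relative to the median of all genes, which parts all genes evenly, the split was 30 to 14. When each sample was rescaled to a summed exon FPKM of 1000000, which the milk protein genes dominate, the median of all genes moved to -0.90 and that of the transport genes to -0.95, with 43 of 44 lower in replicate 2 and 19 of 44 more than 2-fold apart, compared with 42.6% of all genes. How many of all genes were lower in replicate 2 after rescaling was not counted. As the scale decides the sign, no direction is drawn for the pathway.

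The differences between the samples went with base composition. Across the 44 genes, the log2 ratio of replicate 2 to replicate 1 had a Spearman correlation of -0.676 with the GC content of the exons (Pearson -0.645), and across all genes with a mean of at least 1 FPKM it was -0.658. Both come from the same pair of libraries. Of the 22 transport genes with lower GC content, 17 were higher in replicate 2, compared with 8 of the 22 with higher GC content, and the median log2 ratios were 0.27 and -0.08. The same counts were not made over all genes. *Tmed5*, at 35.0% GC the lowest of the 44, was at 0.86, and *Cope*, at 57.7% the highest, at -0.78.

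After the trend with GC content over all genes was removed, *Tmed5* was at 0.24 and *Cope* at -0.20. The SD of the log2 ratios of the 44 genes fell from 0.45 to 0.34, but their median absolute log2 ratio rose from 0.20 to 0.25. Among all genes with a mean of at least 10 FPKM, both fell, the SD from 0.56 to 0.42 and the median from 0.35 to 0.26. More than 1.5-fold apart were then 5 genes, *Sec24a*, *Sar1a*, *Kdelr1*, *Kdelr3* and *Golga2*, of which 3 were among the 10 before, while 12% of all genes were. *Kdelr3* (0.96) and *Sec24a* (0.78) had the largest remaining differences, and both are under 10 FPKM in the mean. The cause of the relation to GC content was not tested.

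**Figure D5:**
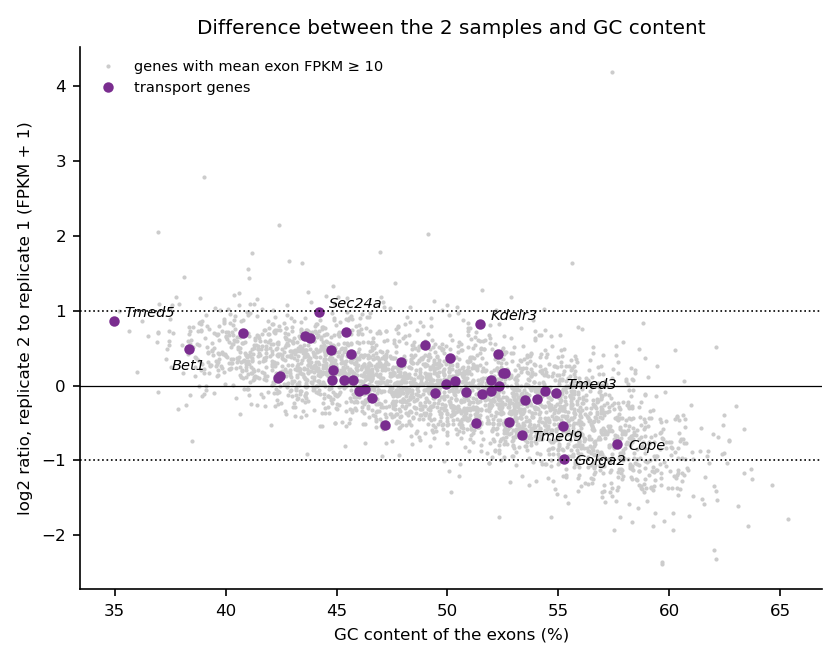
Log2 ratio of replicate 2 to replicate 1 (FPKM + 1) against the GC content of the exons in percent, with the transport genes as large points and all genes with a mean exon level of at least 10 FPKM as small grey points. Genes of low GC content such as *Tmed5* (35.0%) lie above 0, and *Cope* (57.7%) and *Golga2* (55.3%) lie below it.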

How the data were processed

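The deposited files give, per gene, the exon and the intron FPKM of each of the 2 wt/Wap-Tbrg4 L10 samples. The authors made total RNA libraries (TruSeq Stranded Total RNA), mapped the reads to mm10 with STAR, counted them on collapsed exons and the introns between them with HTSeq, and processed the counts with DESeq2. These are the tools that the submitters' notes and the study's methods name. The deposited FPKM have 1 decimal. Tool versions, the treatment of multi-mapping reads, the use of strand in counting and the total for scaling are not given in the sources used here. In 9 of the transport genes the exons overlap an exon of a gene on the opposite strand, and reads of such partners cannot be told apart unless counting used strand. Read counts and depth are unknown, so precision rests on the spread between 2 samples.

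Of 20550 rows, 35 without a gene symbol that could be read were removed. The genes, the class lists, the further pathway genes, the markers and the motifs were chosen with earlier results of these data known. By rule, all 44 genes are named with their values, as are the 3 highest of the further pathway genes. Fold limits (2 and 1.5) were applied to log2(FPKM + 1) over genes with a mean exon level of at least 1 FPKM. Positions and GC content came from RefSeq on GRCm38.p6, and GC content matched 98.8% of the genes with at least 1 FPKM and all 44 transport genes. Small RNAs and overlapping exons came from GENCODE. Near-identical copies are other places aligned by minimap2 (2.31) over at least 50% of the coding sequence at an identity of at least 95%. The GC trend was a lowess fit over 30% of the genes, tested on simulated data. Promoter and microRNA sequences came from RefSeq tables on GRCm38.p6, and *Arcn1*, *Kdelr2*, *Lman1*, *Tmed2* and *Tmed7* had no promoter entry there. Python 3.11.15 with pandas 2.3.3, scipy 1.17.1 and statsmodels 0.14.6 was used. The alternatives were each sample alone, rescaling, the geometric mean, other pseudocounts and filters, centring, GC correction and, added after the data were seen, a fold of 1.5 and the removal of genes with near-identical copies.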

Additional observations from a re-analysis of the deposited data

How the results depend on the processing

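Of 82 alternatives for summary values 58 stayed within a set limit of the main value and 24 did not. The limit was the SD between the samples for levels, shares and pair ratios, 1.5-fold for counts and 0.1 for log2 ratios. Rescaling each sample to a summed exon FPKM of 1000000 lowered the median exon level to 25.2 FPKM for all 44 transport genes and for SNAREs, 30.4 for COPI, 55.3 for ARF, 17.0 for COPII, 49.1 for SAR1, 17.3 for *Sec16a*, 40.3 for KDEL receptors, 58.5 for lectins and 16.7 for tethers, and the median intron level to 0.891 FPKM. It put 19 genes more than 2-fold apart and turned the sign of the median log2 ratio of the 44 genes, from 0.08 to -0.95. A geometric mean gave 55.3 FPKM for SAR1. A pseudocount of 0.1 gave a median intron share of 4.49% and put 2 genes (*Golga2* and *Sec24a*) more than 2-fold apart, and centring put 1 (*Sec24a*). Among genes with a mean of at least 1 FPKM, 22 rather than 36 of the 44 were in the highest 10%. With 1 sample left out, the median exon level was 28.65 to 30.25 FPKM, the median intron level 0.95 to 1.05 FPKM, and the median intron share 3.96% to 4.22%. Of the alternatives added after seeing the data, a fold of 1.5 counted 10 genes, and leaving out genes with near-identical copies gave 30.6 FPKM for COPI and 32.9 for p24. For single genes and pairs, 540 of 673 alternatives stayed within the limit and 133 did not. Of those 133, 92 came under rescaling and 36 under GC correction, which moved 36 of the 44 log2 ratios. Leaving out 1 sample or taking the geometric mean could not move the level of a gene past its SD. The filters on low values left the log2 ratios unchanged. Centring shifted every log2 ratio by the same 0.08, which is under the limit of 0.1. All of these alternatives could only stay within the limit, and they make up most of the 540. The causes of the changes were not tested. No paired analysis was possible because the samples form 1 group. With 2 samples of 1 genotype and unknown depth, no difference between genes or samples has a test.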
